A study of Mus musculus with 2 samples.

Results

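The amyloid precursor family and its secretases were represented by 9 genes, taken by symbol from a fixed list, out of 55536 genes in the deposited gene tables. They are the precursors App, Aplp1 and Aplp2, the alpha-secretase Adam10, the beta-secretase Bace1, and the gamma-secretase genes Psenen, Aph1a, Ncstn and Psen2. All 9 passed the detection limit of at least 1 TPM (a transcript level per length, scaled to the same total in each library) in both libraries, as did 13800 genes in all, so no member was lost to a filter on low values.

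Poly(A)+ RNA-seq was made from tissue of the left cerebral cortex of adult mice, strain B6NCrl, given elsewhere in the labels as C57BL/6, at an age of 6 months. The labels form 1 group of 2 libraries, biological replicates 2 and 1, each made from 20 ng of nucleic acid and fragmented by Nextera tagmentation, a transposase reaction. No treatment or altered allele is named for either library, the description calls the mouse male, and the sex field reads not collected. Both libraries point to separate biosamples but to the same donor entry, so the spread between them may be technical, and no comparison of conditions exists.

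App is a membrane protein of neurons and many other cells that is cut in steps. Alpha-secretase cuts within the amyloid-beta stretch and releases a soluble ectodomain, while beta-secretase cuts at its start, after which gamma-secretase cuts the remaining stub inside the membrane and releases amyloid-beta. Aplp1 and Aplp2 are its mammalian relatives, are cut by the same kinds of enzyme, and lack the amyloid-beta sequence.

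Depth over genes was 26776276 fragments for replicate 2, against 51888490 fragments for replicate 1. Each library also came with a first transcript table, which splits the gene level over transcripts, and a second one that the authors quantified separately from the reads. Cortical cell types were present by their markers. The summed level of the neuronal markers Snap25, Syt1 and Rbfox3 was 3228 TPM in replicate 2 and 2983 in replicate 1, and that of the oligodendrocyte markers was 3020 TPM in replicate 2 and 2771 in replicate 1. Most of the neuronal sum was Snap25, at 2730 TPM in replicate 2 and 2359 in replicate 1, while Rbfox3 had 125.4 TPM in replicate 2 and 234.68 in replicate 1. Of the excitatory markers, Camk2a had 1082.83 TPM in replicate 2 and 847.62 in replicate 1, and Slc17a7 had 37.18 TPM in replicate 2 and 82.72 in replicate 1. The GABAergic interneuron markers summed to 210.9 TPM in replicate 2 and 152.09 in replicate 1. The astrocyte markers summed to 280 TPM in replicate 2 and 255 in replicate 1, and the microglial markers to 127 TPM in replicate 2 and 116 in replicate 1. The cerebellar markers summed to 0.55 TPM in replicate 2 and 0.27 in replicate 1, with Gabra6 at 0 in replicate 2, and the choroid plexus markers to 45.2 TPM in replicate 2 and 58.9 in replicate 1, most of it Ttr.

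The exons that separate the main forms of the precursors are shown first, since the isoform results turn on them. Sequences and coordinates are from mm10 with the GENCODE M21 annotation and run 5′ to 3′ on the coding strand. App carries a cassette exon of 168 bases (chr16:85043576-85043743, minus strand) that codes for a Kunitz-type protease inhibitor domain. Aplp2 carries a coding exon of the same length (chr9:31167561-31167728, minus strand) for the same kind of domain. Capitals mark the bases that are the same in both exons, position by position with no gap, 114 of 168 or 67.9%.
App inhibitor exon: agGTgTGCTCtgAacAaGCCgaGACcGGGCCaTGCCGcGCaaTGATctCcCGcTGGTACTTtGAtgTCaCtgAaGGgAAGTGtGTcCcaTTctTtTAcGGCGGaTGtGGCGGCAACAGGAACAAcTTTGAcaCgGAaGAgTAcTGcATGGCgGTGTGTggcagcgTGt
Aplp2 inhibitor exon: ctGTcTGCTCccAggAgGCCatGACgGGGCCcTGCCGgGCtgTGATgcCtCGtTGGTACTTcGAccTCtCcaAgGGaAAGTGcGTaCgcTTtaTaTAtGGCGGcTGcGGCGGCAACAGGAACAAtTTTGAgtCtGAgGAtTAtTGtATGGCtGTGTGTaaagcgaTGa
In the form of App that skips the inhibitor exon, App-201, the neighbouring exons meet at the junction shown next, with the end of the upstream exon in lower case and the start of the downstream exon in capitals.
App-201 junction: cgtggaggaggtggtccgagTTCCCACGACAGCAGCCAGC

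Amyloid-beta is coded across a pair of consecutive App exons on the minus strand, of 101 bases (chr16:84965670-84965770) and 147 bases (chr16:84962722-84962868). They are shown because they hold the stretch that the secretases free, which is only part of the bases in capitals. Each exon is in capitals, with 15 bases of its neighbours in lower case.
App exon of 101 bases: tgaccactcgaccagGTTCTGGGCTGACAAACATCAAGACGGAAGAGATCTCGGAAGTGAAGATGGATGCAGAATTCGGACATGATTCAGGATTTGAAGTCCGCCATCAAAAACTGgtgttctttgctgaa
App exon of 147 bases: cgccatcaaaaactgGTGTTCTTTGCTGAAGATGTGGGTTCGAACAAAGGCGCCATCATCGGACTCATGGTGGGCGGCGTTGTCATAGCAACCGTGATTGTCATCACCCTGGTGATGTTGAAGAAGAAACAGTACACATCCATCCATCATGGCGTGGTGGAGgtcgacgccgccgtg
Bace1 has a cassette exon of 102 bases (chr9:45858400-45858501, plus strand), printed in the same way because its use differed most between the libraries. It codes for one of the pair of catalytic aspartate motifs of the protease.
Bace1 exon of 102 bases: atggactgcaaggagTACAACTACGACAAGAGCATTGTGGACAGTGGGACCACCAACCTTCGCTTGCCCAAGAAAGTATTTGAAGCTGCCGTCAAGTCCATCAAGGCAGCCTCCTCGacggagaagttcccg

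The first question was how much of each precursor the cortex expressed. The precursors stood far above both proteases that make the first cut, and Aplp1 differed far more between the libraries than App and Aplp2 did. App (ENSMUSG00000022892.11, chromosome 16, 84949685 to 85173766, minus strand) had 400.67 TPM in replicate 2 and 433.8 TPM in replicate 1, a mean of 417.2 ± 23.4 TPM (SD, n = 2). This placed it at rank 371 of the 13800 detected genes by mean level. In bulk tissue such a level does not separate the number of cells that express a gene from the RNA that each holds.

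Aplp1 (ENSMUSG00000006651.8, chromosome 7, 30434982 to 30445535, minus strand), found mostly in neurons, had 213.31 TPM in replicate 2 and 811.69 TPM in replicate 1. Its mean of 512.5 ± 423 TPM was the highest of the 9, at rank 302, but it rested on replicate 1, and in replicate 2 Aplp1 lay below App. Aplp2 (ENSMUSG00000031996.17, chromosome 9, 31149557 to 31211815, minus strand), which is expressed widely in the body, had 179.34 TPM in replicate 2 and 163.97 TPM in replicate 1, or 171.7 ± 10.9 TPM, at rank 877. App was above Aplp2 in both libraries without overlap, whereas the ranges of App and Aplp1 overlapped.

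The make-up of the family therefore differed between the libraries. App held 50.5% of the summed precursor TPM in replicate 2 and 30.8% in replicate 1. Aplp1 held 26.9% in replicate 2 and 57.6% in replicate 1. Aplp2 held 22.6% in replicate 2 and 11.6% in replicate 1, although its own level differed little. The sum of the 3 was 793.3 TPM in replicate 2 and 1409 TPM in replicate 1.

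Adam10 and Bace1, which make the competing first cuts, were at nearly the same level by the deposited TPM. Adam10 (ENSMUSG00000054693.14, chromosome 9, 70678997 to 70780229, plus strand), a membrane metalloprotease and the main alpha-secretase of neurons, had 24.63 TPM in replicate 2 and 20.53 TPM in replicate 1, or 22.58 ± 2.9 TPM (SD, n = 2). Bace1 (ENSMUSG00000032086.12, chromosome 9, 45838580 to 45864399, plus strand), a membrane aspartyl protease, had 24.55 TPM in replicate 2 and 23.37 TPM in replicate 1, or 23.96 ± 0.834 TPM. The ranges of the 2 genes overlapped, and the ratio of Bace1 to Adam10 was 0.997 in replicate 2 and 1.138 in replicate 1. App transcripts outnumbered those of Bace1 16.3-fold in replicate 2 and 18.6-fold in replicate 1. They outnumbered those of Adam10 16.3-fold in replicate 2 and 21.1-fold in replicate 1.

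The 4 gamma-secretase genes spanned a wide range of levels although their products act in 1 complex. Psenen (ENSMUSG00000036835.7, chromosome 7, 30561863 to 30563627, minus strand), the smallest subunit, needed for presenilin to be cut into its active form, had 152.32 TPM in replicate 2 and 167.23 TPM in replicate 1, or 159.8 ± 10.5 TPM. Aph1a (ENSMUSG00000015750.15, chromosome 3, 95893969 to 95898288, plus strand), a scaffold subunit, had 30.86 TPM in replicate 2 and 42.29 TPM in replicate 1, or 36.58 ± 8.08 TPM. Ncstn (ENSMUSG00000003458.12, chromosome 1, 172066013 to 172082795, minus strand), nicastrin, the large glycoprotein that gates access of substrates, had 27.78 TPM in replicate 2 and 32.38 TPM in replicate 1, or 30.08 ± 3.25 TPM. Psenen stood above the other subunits in both libraries, while the ranges of Aph1a and Ncstn overlapped.

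Psen2 (ENSMUSG00000010609.15, chromosome 1, 180227004 to 180263438, minus strand), a presenilin and so a catalytic subunit, had 9.15 TPM in replicate 2 and 7.71 TPM in replicate 1. Its mean of 8.43 ± 1.02 TPM was the lowest of the 9 and lay above 40.0% of detected genes. Relative to the TPM of Ncstn, Psenen stood at 5.48 in replicate 2 and 5.17 in replicate 1, and Aph1a at 1.111 in replicate 2 and 1.306 in replicate 1. Psen2 stood at 0.329 of Ncstn in replicate 2 and 0.238 in replicate 1. These ratios kept the same order in both libraries, but by the second transcript tables Aph1a over Ncstn was 0.932 in replicate 2 and 1.134 in replicate 1, so that Aph1a lay below Ncstn in replicate 2.

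**Figure D1:**
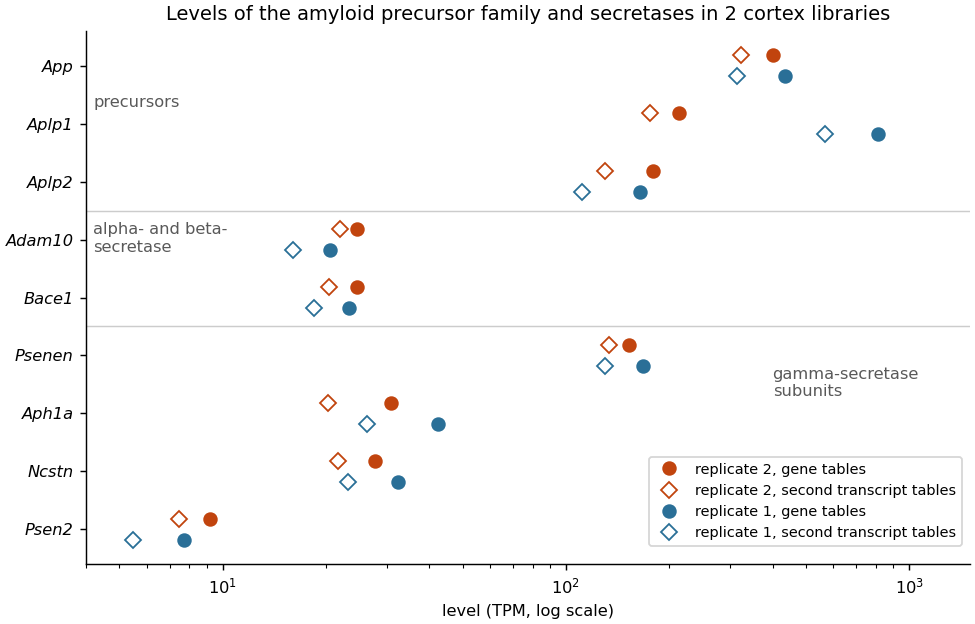
Level of each gene in TPM on a log axis, with replicate 2 above replicate 1, filled points for the gene tables and open diamonds for the second transcript tables. App, Aplp1, Aplp2 and Psenen lie above 100 TPM in both libraries, the other 5 genes below 50, and Aplp1 has the widest gap between the libraries.

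By mean level the order was Aplp1, App, Aplp2, Psenen, Aph1a, Ncstn, Bace1, Adam10 and Psen2. Of the 8 pairs of neighbours, 4 did not overlap between the libraries, namely App over Aplp2, Psenen over Aph1a, Ncstn over Bace1 and Adam10 over Psen2. The ranges of the other 4 pairs overlapped. Of these, Aph1a lay above Ncstn in both libraries. Aplp1 and App, Aplp2 and Psenen, and Bace1 and Adam10 changed order between the libraries. The second transcript tables gave the same direction in both libraries for the 4 separated pairs. In these tables App had 323.3 TPM in replicate 2 and 315.3 TPM in replicate 1, and Aplp1 had 175.4 TPM in replicate 2 and 566.9 TPM in replicate 1.

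TPM divides by a length averaged over transcripts, and for some members transcript models shorter than the leading full-length one raised the level. With fragments divided by the length of the leading full-length transcript instead, an alternative added after the data were seen, Aph1a stood at 13.86 ± 3.1 TPM (SD, n = 2), or 0.379 of its deposited level. Aplp2 then stood at 115 ± 5.7 TPM, or 0.67 of its deposited level. Bace1 stood at 19.34 ± 0.342 TPM and Psen2 at 6.568 ± 0.959 TPM, or 0.807 and 0.779 of their deposited levels. Psenen stood at 0.928 of its own, while App, Aplp1, Adam10 and Ncstn stayed within 2% of theirs. Bace1 then lay below Adam10 in both libraries, at 19.1 against 24.63 TPM in replicate 2 and 19.58 against 20.46 in replicate 1. Psenen lay above Aplp2 in both, at 140.2 against 119 in replicate 2 and 156.4 against 111 in replicate 1. On this scale Aph1a lay below Ncstn, Adam10 and Bace1, so its place in the order depends on how its transcripts were split. The scale also lowers shorter forms that are full length. Fragments of Bace1-202 (4041 bases) were divided by 6058 bases, and those of Aph1a-202 (1601 bases) by 2863. The place of Bace1 below Adam10 thus depends on this choice of length.

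Some members share sequence with other genes, which bears on their counts. Of the 31-base words of the leading full-length Aph1a transcript, 50.9% also occurred in transcripts of other genes, 739 of them in Gm15429, which had 7.94 TPM in replicate 2 and 10.41 TPM in replicate 1. The second transcript tables gave Gm15429 15.6 TPM in replicate 2 and 19.13 TPM in replicate 1, and Aph1a 20.25 TPM in replicate 2 and 26.31 TPM in replicate 1, so the split between these 2 genes depended on the quantification. For Psenen the shared part was 40.7%, mostly with Gm12396 at 4.08 TPM in replicate 2 and 7.14 TPM in replicate 1, which the second transcript tables list at 0. For Bace1 it was 32.6%, mostly with Rnf214 and Gm49338, which lie on the opposite strand, and without a stated use of strand the reads of such pairs cannot be told apart. Aplp1, Aplp2 and Psen2 shared no such word, and App shared 2.7%.

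The next question was which transcripts made up each gene. The 9 genes had 65 annotated transcripts, of which 18 held at least 10% of the gene's TPM in either library and 16 held no fragment. In App, Aplp1, Adam10 and Ncstn 1 full-length transcript made up nearly all of the level. App-201, of 695 codons and without the inhibitor exon, held 96.04% of App in replicate 2 and 95.89% in replicate 1. Aplp1-201, of 654 codons, held 99.16% in replicate 2 and 99.68% in replicate 1, so the gap in Aplp1 was a gap in this 1 transcript. Adam10-201, of 749 codons, held 100% in replicate 2 and 99.57% in replicate 1, and Ncstn-201, of 708 codons, held 94.69% in replicate 2 and 94.87% in replicate 1.

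Psenen was led by Psenen-201, of 101 codons, with 82.21% in replicate 2 and 83.23% in replicate 1. Aplp2 was split over several models. Aplp2-203, a coding model without an annotated 3′ end, held 34.37% in replicate 2 and 36.04% in replicate 1. Aplp2-207, a retained-intron model of the 3′ part of the gene, held 37.54% in replicate 2 and 31.92% in replicate 1. Aplp2-202, full length with 707 codons and without the inhibitor exon, held 21.62% in replicate 2 and 23.9% in replicate 1. The first and second of these are partial models, so their percentages do not measure separate full-length RNAs.

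Aph1a was led by a model of 286 bases, Aph1a-203, with 50.5% in replicate 2 and 52.4% in replicate 1. That share came from 51.99 fragments in replicate 2 and 114.88 in replicate 1, because a short length turns few fragments into many TPM. The full-length Aph1a-202, of 265 codons, held 31.76% in replicate 2 and 25.69% in replicate 1, and Aph1a-201, of 247 codons, held 16.71% in replicate 2 and 20% in replicate 1. In the second transcript tables Aph1a-202 held only 8.3% in replicate 2 and 6.17% in replicate 1, so the split between these forms depended on the quantification.

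Bace1 showed the clearest shift in transcripts between the libraries. Bace1-201, of 501 codons, held 48.24% in replicate 2 and 54.56% in replicate 1, and Bace1-202, of 467 codons and without the exon of 102 bases, held 27% in replicate 2 and 42.8% in replicate 1. Bace1-204, a retained-intron model with no coding sequence, held 22.95% in replicate 2 and 1.86% in replicate 1. In TPM it stood at 5.63 in replicate 2, with the authors' posterior interval from 3.57 to 7.37, and at 0.44 in replicate 1, with an interval from 0.0335 to 1.28. The intervals, whose level the tables do not state, did not overlap, and the second transcript tables gave 23.71% in replicate 2 and 6.95% in replicate 1. The coding transcripts of Bace1 thus held 75.24% of its TPM in replicate 2 and 98.14% in replicate 1. Rnf214, which overlaps Bace1 on the other strand, had 22.56 TPM in replicate 2 and 35.16 TPM in replicate 1, and its part in this shift was not tested.

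For Psen2 the split rested on 277 fragments in replicate 2 and 434 in replicate 1. Psen2-205, of 448 codons, led with 51.01% in replicate 2 and 64.83% in replicate 1. Psen2-202, of 447 codons, held 33.33% in replicate 2 and 6.54% in replicate 1, but its posterior intervals, from 0.0145 to 3.71 TPM in replicate 2 and from 0.0524 to 1.24 TPM in replicate 1, overlapped. The noncoding models Psen2-207, with 4.91% in replicate 2 and 24.1% in replicate 1, and Psen2-210, with 10.75% in replicate 2 and 2.82% in replicate 1, were set by fewer than 30 fragments each.

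**Figure D2:**
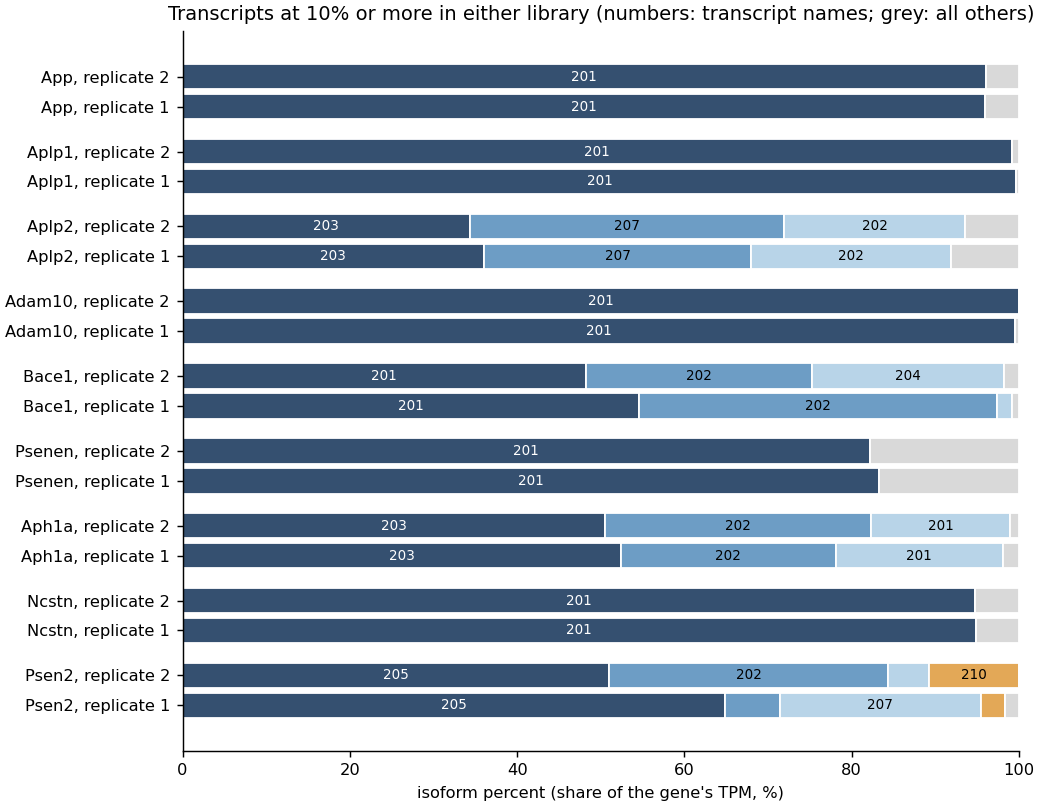
Share of each gene's TPM by transcript (isoform percent), with replicate 2 above replicate 1 for each gene, the transcripts at 10% or more in either library in colour with their transcript numbers, and all others in grey. App, Aplp1, Adam10 and Ncstn are nearly all 1 transcript, and the band of Bace1-204 is wide in replicate 2 (22.95%) and narrow in replicate 1 (1.86%).

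Use of the inhibitor exon separated App from Aplp2. In App, coding transcripts with the exon held 3.83% of the TPM of coding transcripts that span it in replicate 2 and 3.93% in replicate 1. In Aplp2 the exon was present in 65.31% in replicate 2 and 64.61% in replicate 1. The second transcript tables gave 4.34% in replicate 2 and 6.15% in replicate 1 for App, and 54.9% in replicate 2 and 58.69% in replicate 1 for Aplp2. The Aplp2 share rests largely on Aplp2-203, the partial model, which has the exon. Among full-length models alone, a choice added after the data were seen, it was 22.63% in replicate 2 and 24.16% in replicate 1, and by the second transcript tables it was 24.92% in replicate 2 and 21.44% in replicate 1. The App share is the same on that basis, so Aplp2 stayed above App, but the size of the gap depends on the partial model. Aplp1-201 has no exon of 168 bases at that place, although exons of 75, 159, 129 and 100 bases follow each other in all 3 precursors.

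The remaining cassette exons of the precursors were nearly constant. The App exon of 57 bases next to the inhibitor exon was present in 2.09% in replicate 2 and 1.6% in replicate 1. The App exon of 54 bases, whose skipping is known to create a chondroitin sulfate attachment site, was present in 97.43% in replicate 2 and 97.05% in replicate 1. The exons that code for amyloid-beta were present in 99.92% in replicate 2 and 100% in replicate 1. In Aplp2 the exon of 36 bases, whose skipping also creates such a site, was present in 77.37% of full-length transcripts in replicate 2 and 75.84% in replicate 1. Of the full-length models, Aplp2-202 has this exon and Aplp2-201 the inhibitor exon, and Aplp2-209, with neither, stood at 0 TPM. These shares are therefore the same split as that of the inhibitor exon among full-length models, not a separate result. The Bace1 exon of 102 bases was present in 64.1% of coding transcripts in replicate 2 and 56.39% in replicate 1, and by the second transcript tables in 67.56% in replicate 2 and 44.65% in replicate 1.

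**Figure D3:**
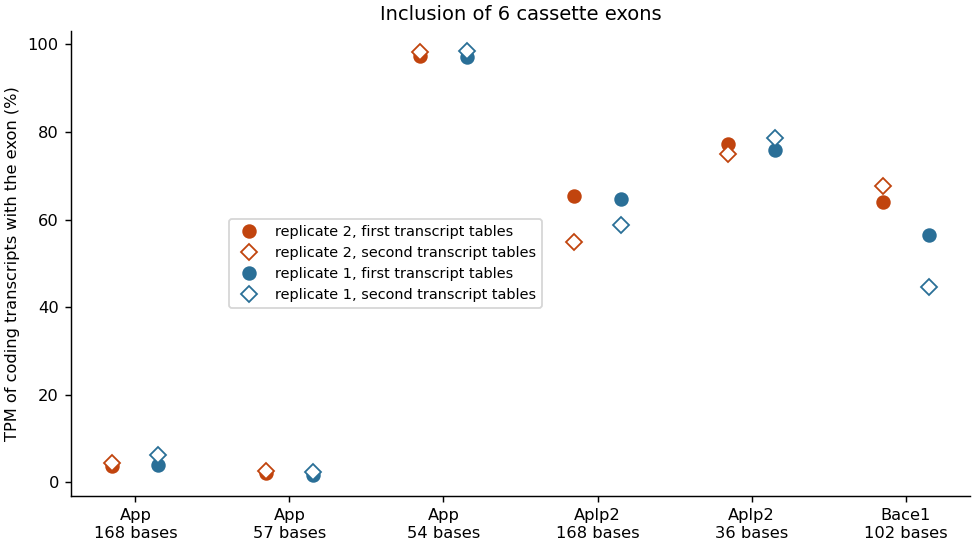
Percent of the TPM of coding transcripts that include each of 6 cassette exons, with replicate 2 left of replicate 1, filled points for the first transcript tables and open diamonds for the second. The exon of 168 bases lies below 7% in App and above 50% in Aplp2 in every library and table, with the partial model Aplp2-203 counted.

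The libraries were then compared gene by gene to size the spread behind these levels, as log2 ratios of CPM (fragments scaled to library size by TMM, plus 0.5), replicate 2 over replicate 1. The exact two-sided binomial test, adjusted over 14656 genes, called 7 of the 9 members different, against 62.3% of all genes tested. Over the 11412 genes averaging at least 5 CPM, which include every member, 70.2% were called. Of the 7 members called, 1 was higher in replicate 2 and 6 were lower, against backgrounds of 26.0% and 36.3%. Past 1.5-fold lay 1 member, Aplp1, which was lower, against 20.5% of all genes (3.22% higher and 17.2% lower). The median log2 ratio of the members was -0.21 and that of all genes tested -0.03. The test sets 1 library against 1 and has no replicate check, and its 95% Clopper-Pearson intervals cover counting error only.

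Aplp1 was the member that differed. It held 9601 fragments in replicate 2 and 70978 in replicate 1, and was 4.17-fold lower in replicate 2, with a log2 ratio of -2.06 (interval -2.09 to -2.03). Of all genes tested, 272 or 1.86% had a ratio at or below this. The second transcript tables gave -1.93. The transcripts of Aplp1 had a GC content of 60.2%, the highest of the members, and the trend fitted across genes at its GC content and length was -0.35. With that trend removed the log2 ratio of Aplp1 was -1.71. Among 656 genes within 1 percentage point of its GC content the median was -0.39, and 36 of them (5.49%) lay at or below Aplp1. Among the 77 of these with at least 100 TPM the median was -0.10, and 7 (9.09%) lay at or below it. The 8 neuronal, excitatory and interneuron markers given here did not move one way. Slc17a7, a vesicular glutamate transporter, stood at -1.29, Rbfox3 at -0.90 and Slc32a1, the vesicular GABA transporter, at -0.84, and Syt1 at -0.11. The other 4, Camk2a, Snap25, Gad1 and Gad2, stood between 0.09 and 0.36. Their part in the difference in Aplp1 was not tested.

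App held 25464 fragments in replicate 2 and 53272 in replicate 1, a log2 ratio of -0.24 (-0.26 to -0.22), which was called lower but lay within the middle part of all genes, from -0.38 to 0.18 at the 25th and 75th percentiles. Aplp2 held 8209 fragments in replicate 2 and 14897 in replicate 1, a ratio of -0.03 (-0.07 to 0.01) that was not called. The intervals of the 3 precursors did not overlap, but they cover counting error only. App and Aplp2 both lay within the middle part of all genes, and the difference between their ratios was not tested.

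Adam10 was the member called higher in replicate 2, with 2246 fragments there and 3643 in replicate 1, at a log2 ratio of 0.13 (0.05 to 0.20). Bace1 was called lower, with 2313 fragments in replicate 2 and 4639 in replicate 1, at -0.18 (-0.25 to -0.11). Neither call held with the trends on GC content and length removed, at 0.08 for Adam10 and -0.08 for Bace1. Among the gamma-secretase genes, Psenen held 1673 fragments in replicate 2 and 3422 in replicate 1, at -0.21 (-0.29 to -0.12). Ncstn held 1559 in replicate 2 and 3526 in replicate 1, at -0.35 (-0.44 to -0.27). These 2 subunits were called lower, as was Aph1a.

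Aph1a, with 652 fragments in replicate 2 and 1742 in replicate 1, stood at -0.58 (-0.72 to -0.46) and was 1.497-fold lower, just inside the 1.5-fold limit. Psen2 stood at 0.17 (-0.05 to 0.40) and was not called, though the second transcript tables, with more fragments, called it higher at 0.25. No difference in ratio between subunits was tested.

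**Figure D4:**
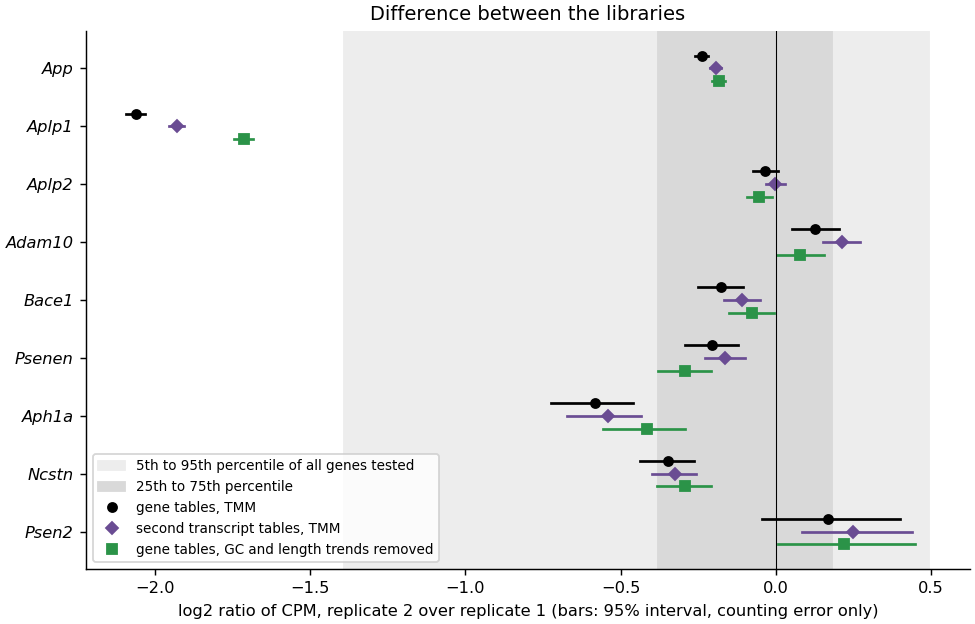
Log2 ratio of CPM of each gene, replicate 2 over replicate 1, with 95% counting intervals, by the gene tables, by the second transcript tables and with the trends on GC content and length removed. Grey bands span the 5th to 95th and 25th to 75th percentiles of the ratios of all genes tested by the gene tables alone. Against these bands Aplp1 alone lies outside the wider one by all 3 measures.

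Other genes of the pathway were described from a list of 41 genes in 7 groups, all detected and tested. Of the 41, 8 were called higher in replicate 2 and 24 lower, together 78% against 62.3% of all genes, and 12 (29.3%) lay past 1.5-fold against 20.5%. Over the 11412 genes averaging at least 5 CPM those background shares were 70.2% and 19.9%. The median log2 ratio of the 41 was -0.18. By direction, 36.3% of all genes tested were called lower and 26.0% higher, and 17.2% lay past 1.5-fold lower and 3.22% higher. The group counts that follow rest on 4 to 8 genes each and stand beside these shares, and no group was tested as a set.

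Among other secretases and candidates, 1 of 5 was called higher and 1 lower, and none lay past 1.5-fold. Adam9, a metalloprotease able to cut App at the alpha site in cells, had 11.12 TPM in replicate 2 and 13.66 TPM in replicate 1. Aph1b, a second scaffold gene of gamma-secretase, had 9.36 TPM in replicate 2 and 6.93 TPM in replicate 1, below Aph1a in both. It has a close copy in the mouse, Aph1c, and how reads divide between the copies is uncertain. Adam17, another candidate alpha-secretase, was lowest with 3.77 TPM in replicate 2 and 2.64 TPM in replicate 1, below Adam10 in both.

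The tetraspanins that escort Adam10 included 4 of 5 genes called lower and 0 higher in replicate 2, with 3 past 1.5-fold. Tspan17 was highest, with 120.63 TPM in replicate 2 and 124.13 TPM in replicate 1. Tspan5 had 18.87 TPM in replicate 2 and 106.09 TPM in replicate 1, at a log2 ratio of -2.45. Tspan15 stood at -0.78, and Tspan33, the lowest in level with 2.16 TPM in replicate 2 and 11.42 TPM in replicate 1, at -2.32. Their GC contents were 50.2% for Tspan5, 54.8% for Tspan15 and 57.7% for Tspan33, and with the GC and length trends removed the ratios were -2.43, -0.74 and -2.15 in that order.

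Of 8 adaptors that bind the App tail or its relatives, 5 were called lower and 0 higher. Apbb1 (Fe65) was highest, at a level near that of App, with 377.58 TPM in replicate 2 and 384.67 TPM in replicate 1. Apba2 (a Mint protein) had 89.66 TPM in replicate 2 and 134.77 TPM in replicate 1. Apba3, the lowest of the 8 by mean level though not in replicate 2, had 17.4 TPM in replicate 2 and 16.61 TPM in replicate 1. Past 1.5-fold lay Mapk8ip1, a kinase scaffold, at -2.06, and Apba1 at -1.31. With the GC and length trends removed they stood at -1.65 and -1.17.

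Of 7 sorting and trafficking genes, 6 were called lower and 1 higher. Vps35, a retromer subunit, was the highest by mean level and the 1 called higher, with 78.62 TPM in replicate 2 and 54.83 TPM in replicate 1 (log2 ratio 0.39), and in replicate 1 Sort1 and Snx27 lay above it. Sort1, the receptor sortilin, had 22.32 TPM in replicate 2 and 66.46 TPM in replicate 1 (-1.79). Gga1 and Gga3, adaptors of the route between the Golgi and endosomes that carries Bace1, stood at -2.45 and -1.52. Gga3 was the lowest in level, with 4.56 TPM in replicate 2 and 15.77 TPM in replicate 1. Snx27 at -0.94 and the receptor Lrp1 at -0.73 were also past 1.5-fold. With the GC and length trends removed Lrp1 stood at -0.45, inside that limit. Sort1, Gga1, Gga3 and Snx27 stayed past it, at -1.71, -2.01, -1.44 and -0.97 in that order.

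The 6 membrane proteins that bind App or its secretases had the highest levels of the list, with a median of 391.5 TPM in replicate 2 and 384.4 TPM in replicate 1. Itm2b, which binds App, had 1405.38 TPM in replicate 2 and 1091.14 TPM in replicate 1, above every precursor in both libraries. Rtn3, a reticulon that binds Bace1, had 493.91 TPM in replicate 2 and 503.15 TPM in replicate 1, and its relative Rtn4, the lowest of the 6 by mean level though not in replicate 2, had 108.78 TPM in replicate 2 and 74.4 TPM in replicate 1. Of the 6, 3 were called higher and 3 lower, and none lay past 1.5-fold.

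Enzymes that degrade amyloid-beta were far lower in level than App. Ece1 had 22.21 TPM in replicate 2 and 24.13 TPM in replicate 1, Ide (insulin-degrading enzyme) 24.69 TPM in replicate 2 and 15.24 TPM in replicate 1, and Mme (neprilysin) 3.53 TPM in replicate 2 and 2.87 TPM in replicate 1. Of the 4 listed, 1 was called higher and 2 lower. Among 6 other substrates of Bace1, 2 were called higher and 3 lower. Scn2b, a sodium channel subunit, had 380.33 TPM in replicate 2 and 205.85 TPM in replicate 1, at 0.75 (log2) the only gene of the list past 1.5-fold higher. Sez6 had 20.87 TPM in replicate 2 and 98.31 TPM in replicate 1, at -1.45, or -1.20 with the GC and length trends removed. Nrcam, a cell adhesion protein, had 95.35 TPM in replicate 2 and 93.04 TPM in replicate 1, and Nrg1, a growth factor that signals to myelinating cells, was lowest with 5.63 TPM in replicate 2 and 4.74 TPM in replicate 1.

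**Figure D5:**
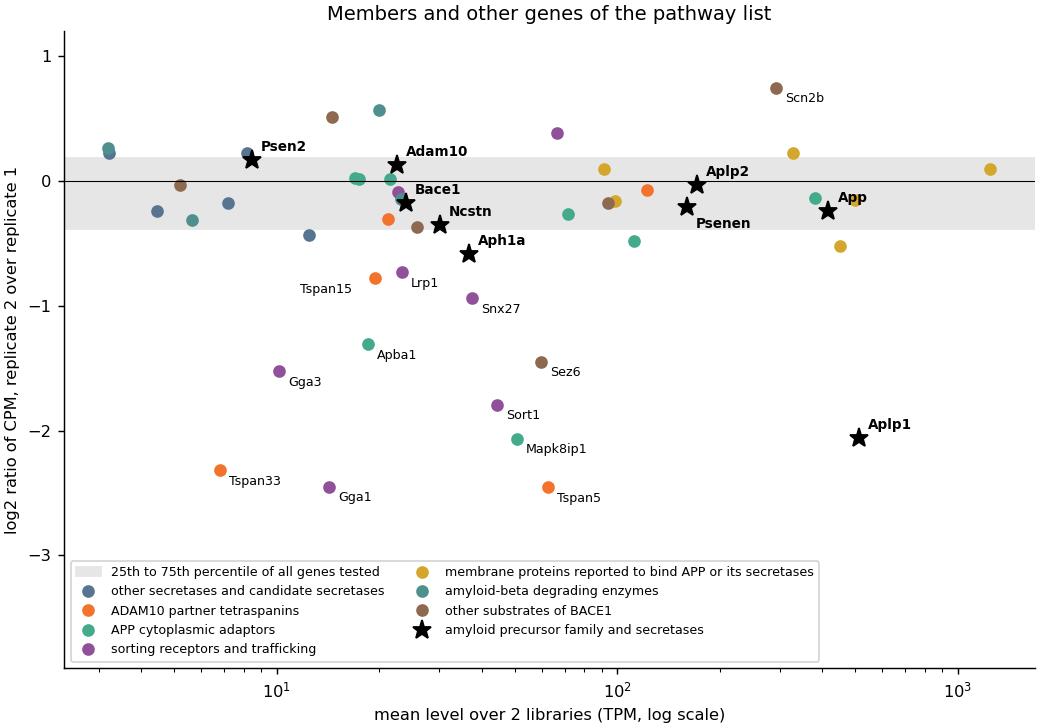
Mean level over 2 libraries (TPM, log axis) against the log2 ratio of CPM, replicate 2 over replicate 1, for the 9 members (stars) and the 41 other genes by group (points), with the 25th to 75th percentile of all genes tested in grey. Aplp1 at -2.06 lies among the sorting, adaptor and tetraspanin genes past 1.5-fold lower, and Scn2b at 0.75 is the highest point.

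The 5 nuclear protein coding genes nearest to App, by Euclidean distance of log2(TPM + 1) over the 2 libraries, were Ywhag, Calm3, Ttc3, Tmem256 and Ywhab. Ywhag was the nearest, at a distance of 0.0719, with 382.99 TPM in replicate 2 and 443.21 TPM in replicate 1. Ywhab, the fifth, lay at 0.0979 with 428.3 TPM in replicate 2 and 428.01 TPM in replicate 1. With 2 libraries of 1 group this likeness is one of level alone.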

How the data were processed

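Poly(A)+ RNA of 2 cortex libraries was analysed from the authors' tables on mm10 with GENCODE M21, per the deposited notes. The gene and first transcript tables deposited by the authors held expected counts without normalization, TPM and, for transcripts, the isoform percent (percent of the gene's TPM). The second transcript tables deposited by the authors held estimated counts and TPM made from the read files. The bounds of a posterior TPM interval, deposited by the authors, were taken as a score and printed for Bace1-204 and Psen2-202. The column layouts were those RSEM and kallisto write. Names and versions of aligner and quantifier, and strand use, were not given in the sources used here. Rows with numeric names (26248) and spike-ins (97) entered neither library sizes nor tests. They held 3.35e-05 percent of fragments in replicate 2 and 1.73e-05 percent in replicate 1.

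Expected counts were rounded. Ratios used CPM plus 0.5 at TMM library sizes (edgeR 4.0.16, R 4.3.3), with 95% Clopper-Pearson intervals (scipy 1.17.1). An exact binomial test was adjusted by Benjamini-Hochberg at 0.05 over genes averaging at least 1 CPM. It was tried on simulated counts that held counting error alone, which cannot show how it behaves with a wider spread between libraries. The libraries carry no molecular identifiers, so intervals cover counting error only. For 1 alternative, a lowess fit on GC content and length was subtracted (statsmodels 0.14.6, fraction 0.3). An exon's use was the TPM of annotated coding transcripts that include it over that of coding transcripts that span it. Alternatives were DESeq2 1.42.0 size factors, total fragments, other pseudocounts and filters, the second transcript tables, TPM over nuclear protein coding genes, shares of fragments, coding transcripts alone and each library left out.

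Members, lists and tests were chosen with earlier results of these data known. Named were the 9 members, their transcripts at 10% or more in either library, the 2 highest and the lowest gene of each pathway group with those past 1.5-fold, and the 5 genes nearest to App.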

Additional observations from a re-analysis of the deposited data

How the results depend on the processing

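No paired analysis was possible because the labels give 1 group, and with 1 library on each side no ratio has a replicate check. Depth limits Psen2 and the transcript shares of Psen2 and Aph1a most. The median member level was 36.6 TPM, 23.3 by the second transcript tables, and 30.9 to 42.3 with 1 library left out. Of the 9 places in the order, 5 were the same without replicate 1, 7 without replicate 2 and 4 with the full-length transcript length. The median log2 ratio of -0.21 was -0.077 with total fragments, where Aplp2 reversed to 0.095 (0.056 to 0.134) and was called higher. Members past 1.5-fold were 2 with a pseudocount of 0.1, when Aph1a joined Aplp1. Aplp1 was past 1.5-fold under every alternative tried. Member ratios had the same direction and call in 64 cases and reversed in 1, Aplp2 with total fragments. They lost the call in 4 (Bace1 and Adam10 without the GC and length trends, Bace1 and Psenen with total fragments) and gained it in 3 (Aplp2 without the trends, Psen2 with total fragments and by the second tables). The share of App transcripts with the exon of 168 bases, 3.88%, was 5.24% by the second transcript tables and 5.6% of fragments, and 3.83% to 3.93% with 1 library left out. That of Aplp2, 64.96%, was 56.8% by the second tables, 53.6% of fragments, 23.4% among full-length models and 64.6% to 65.3% with 1 library left out. App-201, at 95.96% of App, was 94.5% by the second tables, 94.32% of fragments, 96.12% of coding transcripts and 95.89% to 96.04% with 1 library left out. The median level of the pathway list, 22.5 TPM, was 18.2 by the second tables. Apart from the values above, the cause of these changes was not tested.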
